A study of Homo sapiens with 12 samples.

Results

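The Notch pathway was followed in IGROV-1 cells, a line established from a human ovarian carcinoma, through 32 genes: 4 receptors, 6 ligands, 3 Fringe glycosyltransferases, 4 proteases or protease subunits, 4 proteins of the nuclear complex, 5 receptor regulators and 6 HES or HEY target genes. All 32 were among the 19775 genes read by Affymetrix U133 Plus 2.0 arrays. Each gene was represented by the probe set that carried its symbol alone and had the highest mean over the 12 arrays, and no member was lost to a filter on low values. A value is the deposited log2 expression level of a probe set, and a difference is the log2 difference between 2 group means, so that 1 log2 unit is a 2-fold difference.

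The 12 arrays formed 4 groups of 3. Parental cells were untransfected IGROV-1. Mock cells carried a plasmid with a scrambled RNA and were kept as a pool of clones. The cells called clone I and clone II carried the shCXCR4 I and shCXCR4 II plasmids, which encode different short hairpin RNAs against CXCR4, the receptor of the chemokine CXCL12, and had each been grown from an individually selected clone. Mock, clone I and clone II had passed through 30 days of puromycin at 4 µg/ml after transfection, and Parental cells had not. Knockdown and clonal origin therefore cannot be told apart in either comparison with Mock, nor can transfection, selection and the pool itself in the comparison of Mock with Parental. The labels do not say whether the 3 arrays of a group came from separate cultures, so the p-values reflect no more than the spread among these arrays, which may be technical.

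Notch receptors are activated by Jagged or Delta-like ligands on neighbouring cells. ADAM proteases and then the gamma-secretase complex cut the bound receptor, and its intracellular domain enters the nucleus, where it joins RBPJ and a Mastermind protein to switch on genes of the HES and HEY families. In ovarian cancer the pathway is studied mainly through NOTCH1, NOTCH3 and the ligand JAG1.

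The median over all probe sets was 4.25 to 4.39 on the 12 arrays, and correlations within groups were 0.996 to 0.998. CXCR4 itself was at 8.42, 8.28 and 8.30 in Parental replicates 1 to 3, 8.51, 8.60 and 8.64 in Mock, 7.06, 7.10 and 7.11 in clone I and 6.39, 6.73 and 6.75 in clone II, so every array of both clones lay below every control array. All 6 epithelial markers examined had means of 8.01 to 11.78, as had the ovarian and Mullerian markers PAX8 (10.14) and FOLR1 (11.51). WT1 (6.32) and MSLN (5.03) had lower means, and MUC16 (2.98) and EMX2 (2.06) lay below the array medians. With a mean below the median of all values were also 3 of the 4 leukocyte markers measured (PTPRC at 3.08, CD14 at 3.17 and ITGAM at 4.29, with CD3E at 5.30 above), 3 of the 6 endothelial markers (KDR at 2.90, CDH5 at 2.91 and ERG at 3.12, with VWF at 4.73, TEK at 5.09 and PECAM1 at 6.48 above) and 3 of the 6 fibroblast markers. PECAM1 was higher than in Mock in clone I (0.50, limma adjusted p = 0.000845) and clone II (0.40, 0.00415), as was ITGAM (0.37, 0.0396, and 0.40, 0.0267). CD3E and VWF were higher and CDH5 lower in clone I against Mock, and COL1A1 and DCN were higher in clone II. MSLN was lower than in Mock in clone I (-0.62, limma adjusted p = 0.00314) and clone II (-1.26, 1.28e-05). WT1 (-0.28, limma adjusted p = 0.0217) and FOLR1 (-0.76, 5.92e-06) were lower than in Mock in clone II. Of the 6 epithelial markers 2 were higher and 1 lower in clone I than in Mock, and 4 were lower in clone II. Between the clones 5 of the 6 were called, all higher in clone I. Against Parental 3 were higher in Mock, 4 in clone I and 0 in clone II. CDH1 alone was lower than in Parental, in Mock (-0.86), clone I (-0.59) and clone II (-1.56). The mean over the epithelial list was 9.77 in Parental, 9.94 in Mock, 9.95 in clone I and 9.53 in clone II, that of the leukocyte markers was 3.85 to 4.06 in the 4 groups, that of the 6 endothelial markers 4.18 to 4.26 and that of the 6 fibroblast markers 4.21 to 4.35. Over the 6 ovarian and Mullerian markers the mean was 6.46 in Parental and Mock, 6.33 in clone I and 6.11 in clone II. The part of these markers in the results was not tested. These are bulk samples, so fewer cells that express a gene and less RNA of it per cell cannot be told apart.

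The Notch genes did not move as a block. Against Mock, 8 of the 32 members passed limma's test in clone I, 2 higher and 6 lower, and 14 passed in clone II, 4 higher and 10 lower (Benjamini-Hochberg adjusted p under 0.05 over all 19775 genes). Of all genes, 23.6% passed in clone I, 9.97% higher and 13.6% lower, and 26.1% passed in clone II, 11% higher and 15.1% lower, so the members' shares of 25% and 43.8% are to be read beside these. The split of all calls depended on the scaling. Of all genes called, 42.2% were higher in each clone than in Mock as deposited, but 53.7% and 54.6% after quantile normalization and 23.8% and 21.3% after array medians were set equal. The members called were 25% and 28.6% higher as deposited, 25% and 40% after quantile normalization and 12.5% and 20% after centring. Lower than Mock in both clones were 5 members: the receptors NOTCH1 and NOTCH2, the ligand JAG1, the DNA-binding factor RBPJ and the target HES4. Lower calls in both clones were made for 9.2% of all genes, against 15.6% of the members. MAML2 and DTX1 were higher in both clones, 6.25% of the members against 5.59% of all genes. The median difference of the 32 members was 0.04 in clone I and -0.08 in clone II, beside 0.02 in each clone for all genes.

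Comparison with Parental separated some of the members. JAG1 and RBPJ were lower in both clones than in either control, 6.25% of the members beside 3.1% of all genes. NOTCH2 and HES4 were higher in Mock than in Parental and lower in both clones than in Mock (3.87% of all genes), and MAML2 was lower in Mock and higher in both clones than in Mock (1.71%). JAG2 and HES1 were higher in Mock, clone I and clone II alike, 6.25% beside 1.95%. In total 7 members passed in Mock against Parental, 6 higher and 1 lower (15% of all genes, 9.78% higher and 5.23% lower), 8 in clone I against Parental, 3 higher and 5 lower (16.8%, 8.25% and 8.56%), and 7 in clone II, 3 higher and 4 lower (17%, 7.47% and 9.48%). Between clones I and II a single member passed, ADAM10, higher in clone I (7.15% of all genes passed, 4.66% higher in clone I). Lower in both clones than in Parental were 4 members, JAG1, PSEN2, RBPJ and DTX4 (5.51% of all genes), and JAG2 and HES1 were the 2 that were higher in both (4.14%). No call in any of the 6 comparisons was made for 14 of the 32 members, or 43.8%, beside 56.3% of all genes. Of all genes called, 65.2% were higher in Mock than in Parental (54.8% after quantile normalization and 75.2% after centring), and 44.1% in clone II than in Parental (53.6% and 31.1%). These comparisons share arrays, so their calls are not independent of each other. The arrays of the groups compared did not overlap for 14 members in clone I against Mock (41.6% of all genes), 18 in clone II against Mock (36.4%), 14 in Mock against Parental (34.5%), 6 between the clones (23.7%), 15 in clone I against Parental (38.7%) and 21 in clone II against Parental (32.8%).

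**Figure D1:**
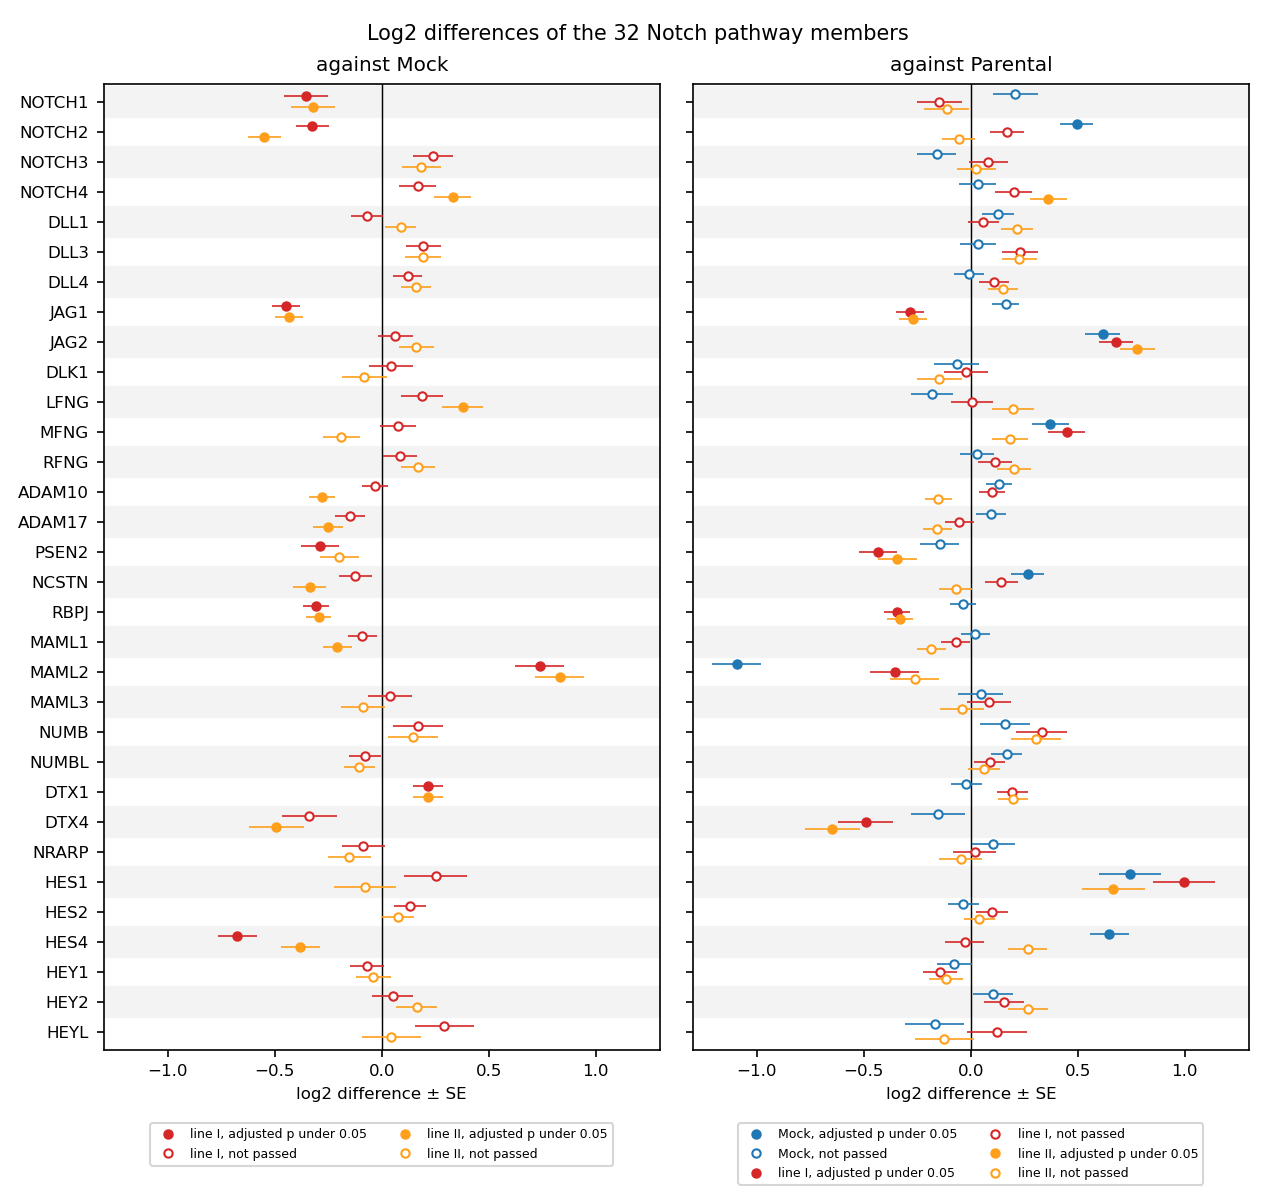
Log2 differences of the 32 members with limma's standard errors, each clone against Mock on the left, and Mock and each clone against Parental on the right; filled points passed at an adjusted p under 0.05 and open points did not. JAG1 and RBPJ lie left of 0 for both clones in both panels, JAG2 and HES1 lie right of 0 for all 3 groups on the right, and MAML2 in Mock is the lowest point, at -1.09.

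Among the ligands, JAG1 fell in both clones. Its log2 level was 10.14, 10.18 and 10.18 in Parental, 10.31, 10.28 and 10.40 in Mock, 9.98, 9.83 and 9.85 in clone I and 9.87, 9.84 and 9.98 in clone II. The 6 arrays of the clones all lay below the 6 control arrays. Clone I had 73.3% of the Mock level and clone II 74.1%, differences of -0.45 ± 0.06 and -0.43 ± 0.06 (± SE, limma adjusted p = 0.000227 and 0.00036). The difference from Parental was -0.28 in clone I (limma adjusted p = 0.00708) and -0.27 in clone II (limma adjusted p = 0.0106). Mock had 0.16 against Parental, with all its arrays above, and did not pass (limma adjusted p = 0.112). That difference passed among genes with a mean log2 of at least 6 (0.0348) and with a trended and robust variance (0.0271). The clones differed from each other by -0.01, with a 95% interval of -0.15 to 0.12. JAG1 is read by 6 probe sets. Against Mock, 209099_x_at (-0.38 and -0.27) and 209098_s_at (-0.54 and -0.37) passed as well, 231183_s_at had -0.33 and -0.37 without passing, and the dim 209097_s_at and 229924_s_at, with means of 3.72 and 4.40, had values from -0.03 to 0.19. Against Parental the difference of clone II did not pass on the mean of the 6 probe sets, at -0.12 (limma adjusted p = 0.128). Taken alone against Parental, 2 of the 6 probe sets passed in clone I and 1 in clone II, the 216268_s_at that represents the gene. On 209098_s_at the differences from Parental were -0.269 (limma adjusted p = 0.1) and -0.105 (0.548), and on 209099_x_at clone II had -0.167 (0.122).

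JAG2, the other Jagged ligand, rose in every transfected group. It was at 7.19, 7.36 and 7.37 in Parental, 7.85, 7.84 and 8.09 in Mock, 8.07, 8.0 and 7.89 in clone I and 8.11, 8.07 and 8.08 in clone II. All 9 arrays of transfected cells lay above the 3 Parental arrays, with mean differences of 0.62 in Mock, 0.68 in clone I and 0.78 in clone II (SE 0.08 each, limma adjusted p = 0.000171, 5.18e-05 and 1.73e-05), which is 1.53-, 1.60- and 1.71-fold. The second probe set, 209784_s_at, gave 0.84, 0.82 and 0.84, and passed in all 3. Against Mock the clones had 0.06 (95% interval -0.11 to 0.24) and 0.16 (-0.01 to 0.34), which did not pass. For clone II this depended on the setting. Its difference from Mock was 0.29 once the arrays had been quantile normalized, and that passed (limma adjusted p = 0.0218). With Mock replicate 3 left out it was 0.25 and passed too (0.0405). JAG1 and JAG2 thus differed in which groups were called against Parental, though for JAG1 in Mock the call depended on the setting.

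The Delta-like ligands DLL1, DLL3 and DLL4 and the related DLK1, which lacks the receptor-binding DSL domain of the Delta and Jagged ligands, passed in no comparison. Their differences ran from -0.07 to 0.19 in clone I against Mock and from -0.08 to 0.19 in clone II. DLL4, the ligand best known from blood vessel sprouting, had 0.12 (95% interval -0.03 to 0.27) and 0.16 (0.01 to 0.31). DLL1 was at 3.86 to 4.21 on all arrays, below every array median.

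Of the receptors, NOTCH1 and NOTCH2 were lower in both clones than in Mock. NOTCH1 was at 7.42, 7.37 and 7.44 in Parental, 7.45, 7.54 and 7.86 in Mock, 7.43, 7.21 and 7.15 in clone I and 7.29, 7.18 and 7.43 in clone II. The clones lay below all Mock arrays but overlapped Parental, and Mock replicate 3 was the highest array. The differences from Mock were -0.35 ± 0.10 in clone I and -0.32 ± 0.10 in clone II (± SE, limma adjusted p = 0.0258 and 0.0379), and those from Parental were -0.15 (95% interval -0.37 to 0.08) and -0.11 (-0.34 to 0.11). Without Mock replicate 3 the differences from Mock were -0.23 (limma adjusted p = 0.103) and -0.20 (0.149), and the call also ended for clone I without its replicate 2 (0.0806) or 3 (0.104) and for clone II without its replicate 1 (0.0888) or 2 (0.136) or Mock replicate 2 (0.0523). It ended under quantile normalization too, at -0.25 (0.1) and -0.19 (0.204), and on the mean of its 2 probe sets, at -0.18 (0.0717) and -0.12 (0.192).

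NOTCH2 was highest in Mock. Its levels were 8.70, 8.71 and 8.74 in Parental, 9.15, 9.15 and 9.33 in Mock, 8.97, 8.79 and 8.89 in clone I and 8.80, 8.60 and 8.58 in clone II. The Mock arrays lay above all 9 others. Mock exceeded Parental by 0.49 ± 0.08 (limma adjusted p = 0.000734), and the clones were lower than Mock, with differences of -0.33 ± 0.08 and -0.55 ± 0.08 (limma adjusted p = 0.00821 and 0.000247). Against Parental, clone I had 0.17 and clone II -0.06, and neither passed. The probe set 212377_s_at passed in the same 3 comparisons, 210756_s_at passed in Mock against Parental (0.55), clone I against Parental (0.33) and clone II against Mock (-0.48), and 202445_s_at in none, with 0.04 to 0.16 in the comparisons with Mock or Parental. Quantile normalization ended the call of clone I, at -0.24 (limma adjusted p = 0.0674). A further probe set of the array is annotated to NOTCH2 together with its near-identical copies NOTCH2NLA, NOTCH2NLB, NOTCH2NLC and NOTCH2NLR, and how far the copies add to the values used here was not tested.

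NOTCH4 rose in clone II. It was at 4.93, 4.90 and 4.61 in Parental, 4.76, 4.85 and 4.92 in Mock, 5.02, 4.97 and 5.05 in clone I and 5.23, 5.25 and 5.05 in clone II, so clone II lay above all control arrays. The difference was 0.33 against Mock and 0.36 against Parental (SE 0.09, limma adjusted p = 0.0146 and 0.0119). Clone I had 0.17 and 0.20, which did not pass, and the clones differed by -0.16 (95% interval -0.35 to 0.03). The calls ended on the mean of both probe sets (limma adjusted p = 0.0654 against Mock and 0.09 against Parental), against Mock without clone II replicate 1 (0.0509) or 2 (0.0577) or Mock replicate 1 (0.0501), and against Parental without clone II replicate 2 (0.0517) or Parental replicate 3 (0.0536). NOTCH3, a receptor often studied in ovarian carcinoma, gave opposite signs on its 2 probe sets. On 203237_s_at, which represents the gene, it had 0.24 and 0.18 against Mock and did not pass. On the dimmer 203238_s_at, with a mean of 4.28, it fell by 0.32 and 0.43 (limma adjusted p = 0.0359 and 0.00675 over all single-symbol probe sets).

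**Figure D2:**
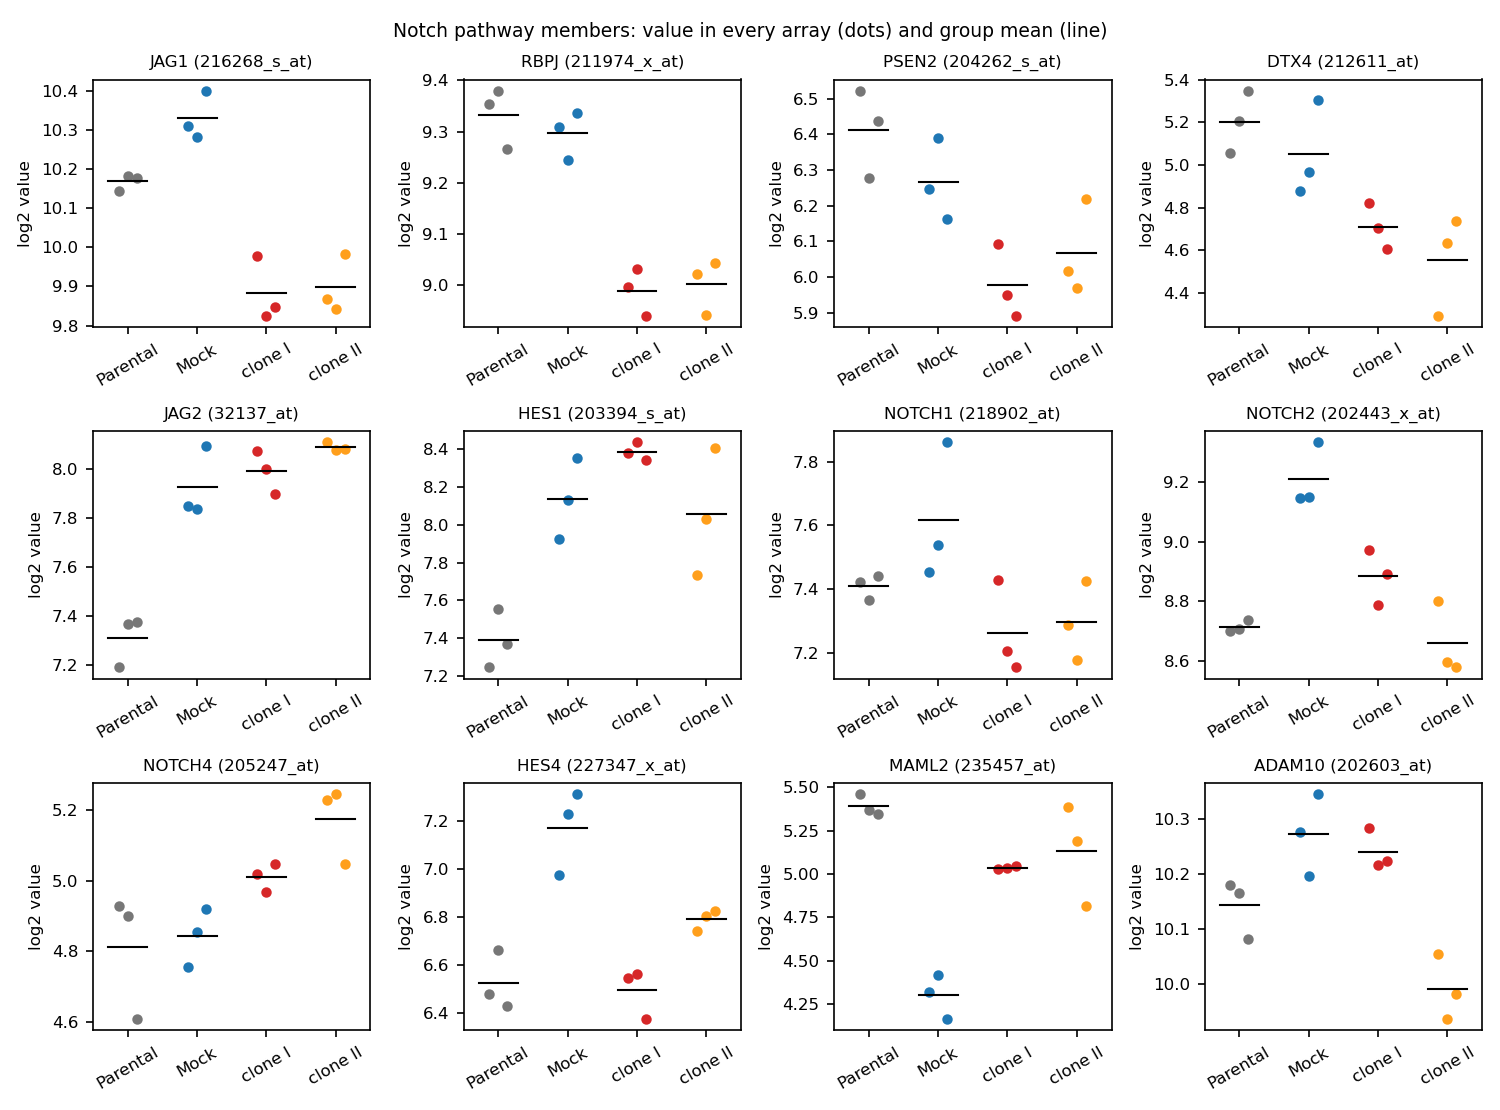
Log2 value of 12 members in every array, with dots for the 3 arrays of Parental, Mock, clone I and clone II and a bar for each group mean; each panel has its own axis, which does not start at 0. JAG1 and RBPJ are lower in both clones than in both controls, JAG2 and HES1 are lowest in Parental, and NOTCH2, HES4 and MAML2 stand apart in Mock.

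The Fringe enzymes add sugars to Notch receptors and change which ligands they answer to. MFNG was higher than Parental in Mock, by 0.37 ± 0.09 (limma adjusted p = 0.00976), and in clone I, by 0.45 ± 0.09 (0.00235), and had 0.18 in clone II (0.169). Its levels were 4.48, 4.48 and 4.27 in Parental, 4.73, 4.76 and 4.85 in Mock, 5.02, 4.75 and 4.81 in clone I and 4.54, 4.70 and 4.53 in clone II, and all arrays of the transfected groups lay above Parental. The other MFNG probe sets, 204152_s_at and 213783_at, had 0.15 and 0.12 in Mock and 0.09 and 0.29 in clone I and did not pass, and the call of Mock ended without Parental replicate 3 (limma adjusted p = 0.0515). LFNG rose by 0.38 ± 0.10 in clone II against Mock (limma adjusted p = 0.0128), from 3.87 to 4.25 in Mock to 4.24 to 4.59, with overlapping arrays near the array medians. This LFNG call ended under quantile normalization (limma adjusted p = 0.0668) and on the mean of its 2 probe sets (0.0937). RFNG passed nowhere.

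The 4 proteases all had differences below 0 in both clones against Mock, 1 of which passed in clone I (PSEN2) and 3 in clone II. ADAM10, the protease that makes the first cut in ligand-bound receptors, was at 10.18, 10.17 and 10.08 in Parental, 10.28, 10.20 and 10.34 in Mock, 10.28, 10.22 and 10.22 in clone I and 10.05, 9.94 and 9.98 in clone II. Clone II lay below all 9 other arrays. It was lower than Mock, with a difference of -0.28 ± 0.06 (limma adjusted p = 0.00495), where clone I had -0.03. Under quantile normalization the former did not pass (0.0538), while it passed on all 3 probe sets of the gene. Clone I exceeded clone II by 0.25 ± 0.06 (limma adjusted p = 0.0261). That difference did not pass under quantile normalization (0.0824), on the mean of the 3 probe sets (0.118), or without clone I replicate 1 (0.106), 2 (0.0687) or 3 (0.0677) or clone II replicate 2 (0.1).

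The related ADAM17 fell in clone II against Mock by 0.25 (SE 0.07, limma adjusted p = 0.0178) and had -0.15 in clone I, which did not pass. On the mean of its probe sets clone I passed against Mock, at -0.185 (limma adjusted p = 0.0349). Under quantile normalization clone II had -0.13 (0.143). Without Mock replicate 3 the adjusted p was 0.0587, and without clone II replicate 1 or 2 it was 0.0665 and 0.0637. NCSTN, the nicastrin subunit of gamma-secretase, fell in clone II by 0.34 (SE 0.08, limma adjusted p = 0.00628). NCSTN was 0.27 higher in Mock than in Parental (limma adjusted p = 0.0324, and 0.134 without Mock replicate 2 or 0.0936, 0.0908 and 0.066 without Parental replicate 1, 2 or 3). On the mean of its 2 probe sets NCSTN had -0.12 (0.313) and 0.03 (0.844).

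PSEN2, the presenilin that forms the catalytic core of some gamma-secretase complexes, was at 6.52, 6.28 and 6.44 in Parental, 6.25, 6.39 and 6.16 in Mock, 6.09, 5.95 and 5.89 in clone I and 6.02, 5.97 and 6.22 in clone II. Both clones lay below all Parental arrays, with differences of -0.43 ± 0.09 in clone I and -0.34 ± 0.09 in clone II (limma adjusted p = 0.00416 and 0.0188). Against Mock, clone I passed at -0.29 (0.0333) and clone II had -0.20 (0.123). On 211373_s_at PSEN2 fell in both clones against both controls, by 0.26 and 0.43 against Mock and 0.30 and 0.46 against Parental. The remaining probe set, 204261_s_at, had -0.31 in clone I (limma adjusted p = 0.0854) and 0.03 in clone II against Mock, and neither passed. Against Parental it passed in clone I, at -0.60, but not in clone II, at -0.27 (limma adjusted p = 0.155). The PSEN2 call of clone I against Mock ended under quantile normalization (0.0749) and without Mock replicate 1 (0.0596) or 2 (0.132) or clone I replicate 2 (0.0906) or 3 (0.125), and that of clone II against Parental without Parental replicate 1 (0.0758) or 3 (0.0633) or clone II replicate 1 (0.0606) or 2 (0.0797).

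In the nuclear complex RBPJ, the factor that places Notch on DNA, was lower in both clones than in both controls. It was at 9.35, 9.38 and 9.27 in Parental, 9.31, 9.24 and 9.34 in Mock, 8.995, 9.03 and 8.94 in clone I and 9.02, 8.94 and 9.04 in clone II, with a gap between the 6 control arrays and the 6 arrays of the clones. The clones had 80.8% and 81.5% of the Mock level. The differences were -0.31 and -0.29 against Mock (SE 0.06, limma adjusted p = 0.00219 and 0.00296) and -0.34 and -0.33 against Parental (0.00109 and 0.00164). Clone I and clone II differed by -0.01 (95% interval -0.14 to 0.12). These values come from 211974_x_at, a probe set of the class that can also read related transcripts. On 207785_s_at RBPJ had -0.27 in clone I (limma adjusted p = 0.0691) and -0.46 in clone II (0.005) against Mock, and -0.08 and -0.26 against Parental, which did not pass. The remaining probe set, 229540_at, had a mean of 3.02 and values from -0.05 to 0.12. On the mean of the 3 probe sets the calls against Parental ended, at -0.16 (0.105) and -0.17 (0.0822).

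The Mastermind co-activators did not move together. MAML2 was at 5.46, 5.37 and 5.35 in Parental, 4.32, 4.41 and 4.16 in Mock, 5.03, 5.04 and 5.05 in clone I and 5.39, 5.19 and 4.82 in clone II. The Mock arrays lay below all others, at 46.9% of the Parental level (-1.09 ± 0.11, limma adjusted p = 2.16e-05), which is the largest difference of any member in any of the 6 comparisons. These Mock values lay near the array medians, which were 4.25 to 4.28 in Mock. Clone I exceeded Mock by 0.74 ± 0.11 and clone II by 0.83 ± 0.11 (limma adjusted p = 0.000411 and 0.000193). Against Parental, clone I was lower, at -0.36 (limma adjusted p = 0.0472) and clone II had -0.26 (0.138). The call of clone I against Parental ended whichever of the 6 arrays was left out (adjusted p from 0.0865 to 0.135). The second MAML2 probe set, 235106_at, had a mean of 3.25 and passed nowhere, with -0.22 in Mock against Parental. MAML1 had -0.09 in clone I and -0.21 in clone II against Mock; the latter passed (limma adjusted p = 0.0385) but not under quantile normalization, at -0.08 (0.368), with the replicate number as a block (0.0562), or without any 1 Mock array (0.0528, 0.0736 and 0.115) or clone II replicate 1 (0.115) or 2 (0.107). MAML3 passed nowhere on the probe set that represents it. On the dim 207946_at it rose in clone II, by 0.38 against Mock and 0.42 against Parental.

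**Figure D3:**
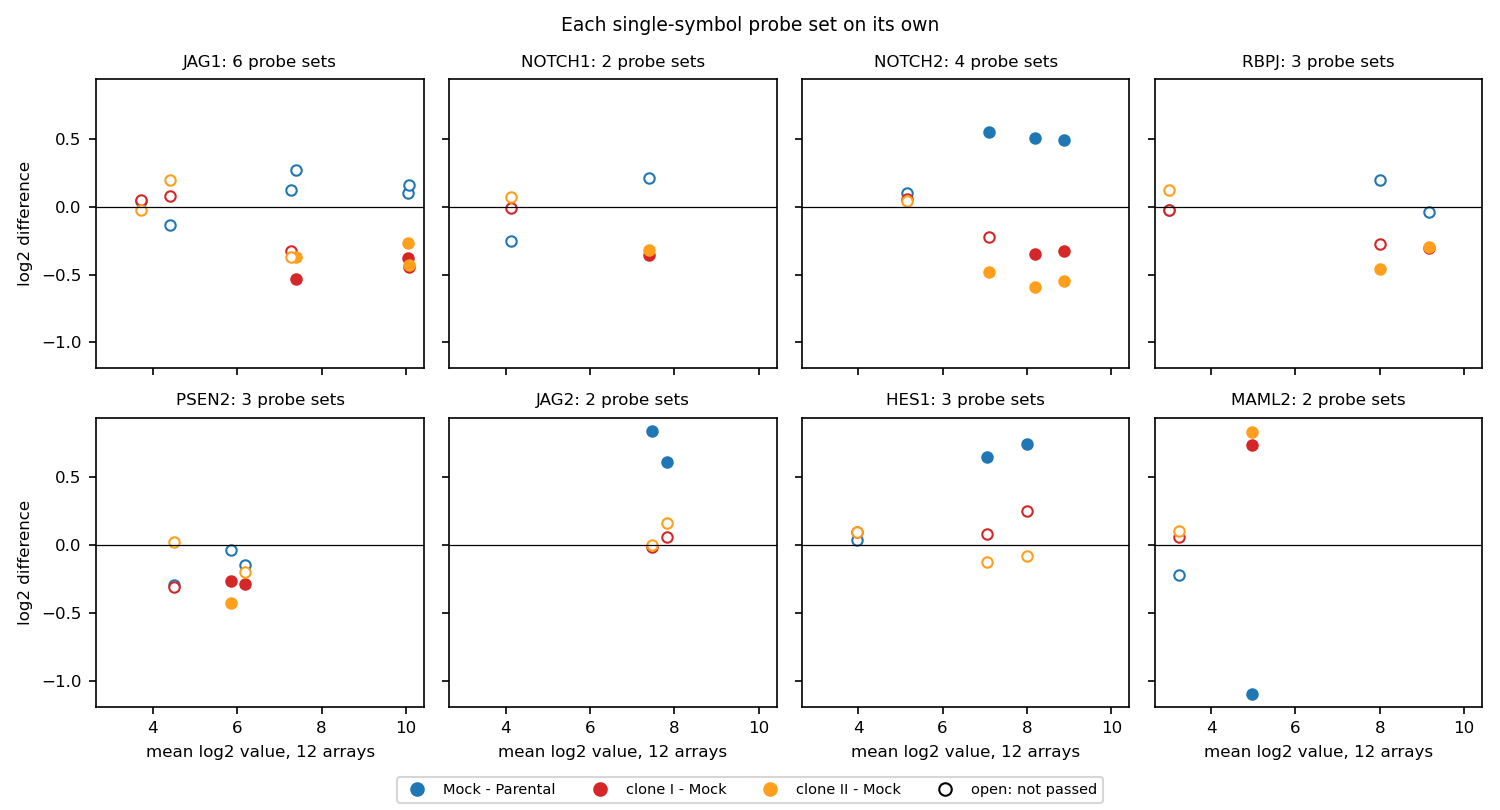
Log2 difference of every single-symbol probe set of 8 members against its mean log2 value over the 12 arrays, for Mock minus Parental, clone I minus Mock and clone II minus Mock; filled points passed at an adjusted p under 0.05. The 4 brighter JAG1 probe sets, with means above 7, lie below 0 for both clones, and the probe sets of JAG1, RBPJ, HES1 and MAML2 with means under 4 lie between -0.22 and 0.12, none past the test.

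Among the regulators of the receptor, the Deltex genes, which encode ubiquitin ligases acting on Notch, moved in opposite directions. DTX4 was at 5.06, 5.21 and 5.35 in Parental, 4.88, 4.97 and 5.30 in Mock, 4.82, 4.70 and 4.61 in clone I and 4.29, 4.64 and 4.74 in clone II. All arrays of the clones lay below all control arrays. It fell by 0.49 in clone I and 0.65 in clone II against Parental (SE 0.13, limma adjusted p = 0.0166 and 0.0033) and by 0.49 in clone II against Mock (0.0131). In clone I against Mock it had -0.34 (0.0719), which passed with the replicate block (0.0468), after centring (-0.41, 0.037), with the trended and robust variance (0.0462) and without Mock replicate 1 (-0.42, 0.0453). Leaving out Parental replicate 3 (0.0776) or clone I replicate 3 (0.0698) ended the call of clone I against Parental, and Mock replicate 3 (0.0565) or clone II replicate 1 (0.0576) that of clone II against Mock.

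DTX1 was slightly higher in both clones than in Mock. It was at 4.62, 4.52 and 4.63 in Parental, 4.55, 4.54 and 4.63 in Mock, 4.84, 4.78 and 4.74 in clone I and 4.82, 4.90 and 4.65 in clone II, and no array of the clones lay below a control array. The differences were 0.21 and 0.22 (SE 0.07, limma adjusted p = 0.0416 and 0.0379). They did not pass under quantile normalization (0.0961 and 0.112), centring (0.137 and 0.156), the trended and robust variance (0.0895 and 0.0818) or the replicate block (0.0605 and 0.0546). In clone I they ended whichever of the 6 arrays was left out (0.0502 to 0.134), and in clone II without Mock replicate 1 (0.0867) or 2 (0.105) or clone II replicate 1 (0.0958) or 2 (0.147).

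NRARP, a direct target that dampens the nuclear complex, had -0.09 in clone I (95% interval -0.30 to 0.13) and -0.15 in clone II (-0.37 to 0.06) against Mock and passed nowhere. NUMB, an inhibitor of Notch, and the related NUMBL passed nowhere as well. NUMB is represented by a dim probe set at 2.83 to 3.44, since 3 others are annotated to it together with a further gene. On its other probe set, 224059_s_at, NUMBL was higher than Parental in Mock (0.29), clone I (0.34) and clone II (0.52), with limma adjusted p = 0.0412, 0.0156 and 0.000971.

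The target genes HES1 and HES4, transcriptional repressors of the bHLH class, were both higher in Mock than in Parental and were called in different comparisons of the clones. HES1 was at 7.25, 7.55 and 7.37 in Parental, 7.92, 8.13 and 8.35 in Mock, 8.38, 8.44 and 8.34 in clone I and 7.73, 8.03 and 8.41 in clone II. All 9 arrays of transfected cells lay above Parental, and the 3 transfected groups overlapped. HES1 exceeded Parental by 0.74 in Mock, 1.00 in clone I and 0.67 in clone II (SE 0.15, limma adjusted p = 0.00355, 0.000301 and 0.00654), or 1.68-, 2.00- and 1.59-fold. Against Mock, clone I had 0.25 (95% interval -0.06 to 0.57) and clone II -0.08 (-0.39 to 0.24). The probe set 203395_s_at gave 0.65, 0.73 and 0.52 against Parental and passed in all 3. The dim 203393_at, with a mean of 3.97, had 0.04, 0.14 and 0.14 and did not pass.

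HES4 was highest in Mock. It was at 6.48, 6.66 and 6.43 in Parental, 6.97, 7.23 and 7.31 in Mock, 6.55, 6.56 and 6.38 in clone I and 6.74, 6.80 and 6.82 in clone II. The Mock arrays lay above all 9 others, and clone II lay above clone I. Mock exceeded Parental by 0.65 ± 0.09 (limma adjusted p = 0.000316). Both clones were lower than Mock, with differences of -0.68 ± 0.09 and -0.38 ± 0.09 (limma adjusted p = 0.00014 and 0.0086). The clones differed by -0.29 (0.0732), which passed under quantile normalization, at -0.31 (0.0397). HES4 is read by a single probe set, 227347_x_at.

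HES2, HEY1, HEY2 and HEYL passed in no comparison. Their differences ran from -0.07 to 0.29 in clone I and from -0.04 to 0.16 in clone II against Mock, and from -0.17 to 0.10 in Mock against Parental. HEY1, the HEY gene most used as a readout of Notch activity, had -0.07 (95% interval -0.24 to 0.11) and -0.04 (-0.21 to 0.13) against Mock. HEY2 was at 2.70 to 3.20 on all arrays, below the array medians. Of the 6 HES and HEY targets, HES4 was thus the 1 called against Mock, lower in both clones.

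The promoters of 4 target genes are shown because they place the motif read by RBPJ beside target genes that were called (HES1 and HES4, both higher in Mock than in Parental) and target genes that had no call (HEYL and HEY2). They are the RefSeq windows of 250 bases before to 50 after the start site, on build GRCh38.p14, written 5′ to 3′ on the gene's strand, and capitals mark each match to TGGGAA or the longer GTGGGAA on either strand (TTCCCA and TTCCCAC where the match is on the opposite strand).
HES1: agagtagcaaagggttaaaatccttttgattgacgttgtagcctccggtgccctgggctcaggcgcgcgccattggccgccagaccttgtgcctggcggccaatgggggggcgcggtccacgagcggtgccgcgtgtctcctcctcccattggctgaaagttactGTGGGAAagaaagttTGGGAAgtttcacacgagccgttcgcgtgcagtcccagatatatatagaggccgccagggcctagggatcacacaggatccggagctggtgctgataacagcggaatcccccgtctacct
HES4: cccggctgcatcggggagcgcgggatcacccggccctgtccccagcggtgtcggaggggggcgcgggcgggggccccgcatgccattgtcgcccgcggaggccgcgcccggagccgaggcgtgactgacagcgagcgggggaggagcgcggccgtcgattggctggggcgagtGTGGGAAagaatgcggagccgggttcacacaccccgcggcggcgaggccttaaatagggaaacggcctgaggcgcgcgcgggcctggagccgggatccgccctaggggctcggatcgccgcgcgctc
HEYL: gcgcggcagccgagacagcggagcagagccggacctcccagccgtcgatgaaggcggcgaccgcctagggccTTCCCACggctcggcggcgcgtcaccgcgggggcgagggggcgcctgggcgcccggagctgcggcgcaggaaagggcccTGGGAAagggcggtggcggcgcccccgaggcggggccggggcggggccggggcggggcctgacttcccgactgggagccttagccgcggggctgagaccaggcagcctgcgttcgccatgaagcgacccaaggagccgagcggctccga
HEY2: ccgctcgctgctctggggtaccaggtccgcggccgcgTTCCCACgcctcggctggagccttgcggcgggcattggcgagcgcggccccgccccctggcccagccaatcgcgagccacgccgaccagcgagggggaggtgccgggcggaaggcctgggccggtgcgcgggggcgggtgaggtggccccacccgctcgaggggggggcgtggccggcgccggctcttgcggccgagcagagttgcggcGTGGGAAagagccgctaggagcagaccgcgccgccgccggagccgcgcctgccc
The windows lie for HES1 at chr3:194135898-194136197 on the plus strand, HES4 at chr1:1000048-1000347 on the minus strand, HEYL at chr1:39639594-39639893 on the minus strand and for HEY2 at chr6:125749382-125749681 on the plus strand. In HES1 the 2 matches begin 85 and 70 bases before the start site, both on the gene's strand, and in HES4 the only match begins 77 bases before it. HEYL and HEY2 have 2 matches each, on opposite strands. Every match to GTGGGAA also contains TGGGAA. All 4 windows shown hold GTGGGAA. HES2, a target gene that had no call, held neither motif in its promoter and is not shown, so the 4 do not stand for all targets.

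The table holds 33 promoters for 26 of the 32 members. GTGGGAA was present in 5 of the 33, or 15.2%, belonging to HES1, HES4, HEYL, HEY2 and RBPJ, and in 6.25% of all 35116 promoters of this length. TGGGAA was present in 7, or 21.2%, beside 24% of all promoters. The N box CACNAG, the element bound by HES repressors, was present in 14, or 42.4%, beside 38% of all promoters, and HES1 alone held 4 matches. RBPJ has 5 windows in the table, and 1 of them held GTGGGAA on both strands. A match is a description of the letters and not a site of binding.

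A list of 50 other genes of the pathway was read in the same way. Against Mock, 16 of the 50 passed in clone I, 5 higher and 11 lower, and 19 in clone II, 4 higher and 15 lower, which is 32% and 38% beside the 23.6% and 26.1% of all genes. Lower in both clones were 10 of them, 20% beside 9.2% of all genes, and higher in both were 2, 4% beside 5.59%. In Mock against Parental 10 passed, 7 higher and 3 lower, 20% beside 15% of all genes. Against Parental 11 passed in clone I, 3 higher and 8 lower (22% beside 16.8%), and 10 in clone II, 3 higher and 7 lower (20% beside 17%). Between the clones 7 passed, 4 higher in clone I and 3 lower (14% beside 7.15%).

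The leading falls in both clones against Mock were in TLE2, a Groucho co-repressor recruited by HES proteins, with -0.67 and -0.83 (SE 0.10, limma adjusted p = 0.000391 and 8.45e-05), in the ubiquitin ligase NEURL1B, which acts on ligands, with -0.50 and -0.42, in FBXW7, which marks the Notch intracellular domain for degradation, with -0.36 and -0.41, and in the acetyltransferase EP300, a co-activator of the Notch complex, with -0.36 and -0.40. TLE2 was at 5.92, 6.04 and 5.94 in Parental and 6.35, 6.67 and 6.52 in Mock, 5.92, 5.71 and 5.90 in clone I and 5.59, 5.55 and 5.91 in clone II, so that Mock stood above the other groups. The 2 genes higher in both clones were the protease ADAM12 (0.35 and 0.33) and the microfibril protein MFAP2 (0.27 and 0.96). Against Parental, NEURL1B was lower in clone I alone, and TLE2, FBXW7 and EP300 passed in neither clone. Of the 50 genes, CREBBP alone was lower in both clones than in both controls, 2% beside 3.1% of all genes. The EP300 calls ended under quantile normalization (limma adjusted p = 0.112 and 0.0752), that of clone II also in the fit of the 2 groups alone (0.0746), and both without Mock replicate 2 (0.121 and 0.0788) or 3 (0.141 and 0.0931). In clone I the EP300 call also ended without its replicate 1 (0.105), 2 (0.0784) or 3 (0.115), and in clone II without its replicate 1 (0.114) or 2 (0.0861). Those of ADAM12 ended without Mock replicate 2 (0.0773 and 0.102), in clone I without its replicate 2 (0.0612) or 3 (0.0573), and on the mean of its probe sets (0.113), and in clone II under centring (0.0674), quantile normalization (0.0847) and the fit of the 2 groups alone (0.0558) and without its replicate 2 (0.0951). NEURL1B in clone II ended without Mock replicate 3 (0.0589) or clone II replicate 2 (0.0677).

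Of the 7 other pathway genes called between the clones, the 3 with the largest differences were CCN3, MFAP2 and MFAP5, of which CCN3 and MFAP5 were chosen after their values were seen. CCN3, a matricellular protein reported to bind NOTCH1, was at 7.09, 7.14 and 7.11 in Parental, 7.69, 7.75 and 7.66 in Mock, 9.01, 8.90 and 8.94 in clone I and 7.64, 7.75 and 7.75 in clone II. Clone I exceeded all other arrays, by 1.25 ± 0.06 against Mock (limma adjusted p = 8.88e-09) and 1.84 against Parental, or 2.38- and 3.58-fold. Mock and clone II were 0.59 and 0.60 above Parental. MFAP2 was at 6.92, 6.87 and 6.97 in Parental, 6.23, 6.37 and 6.30 in Mock, 6.52, 6.61 and 6.58 in clone I and 7.34, 7.22 and 7.23 in clone II. The 4 groups did not overlap. The related MFAP5 was at 10.17, 10.07 and 10.10 in Parental, 9.67, 9.80 and 9.64 in Mock, 9.67, 9.74 and 9.80 in clone I and 9.13, 9.06 and 9.18 in clone II, and fell in clone II by 0.57 against Mock (SE 0.07, limma adjusted p = 4.09e-05) and by 0.99 against Parental.

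**Figure D4:**
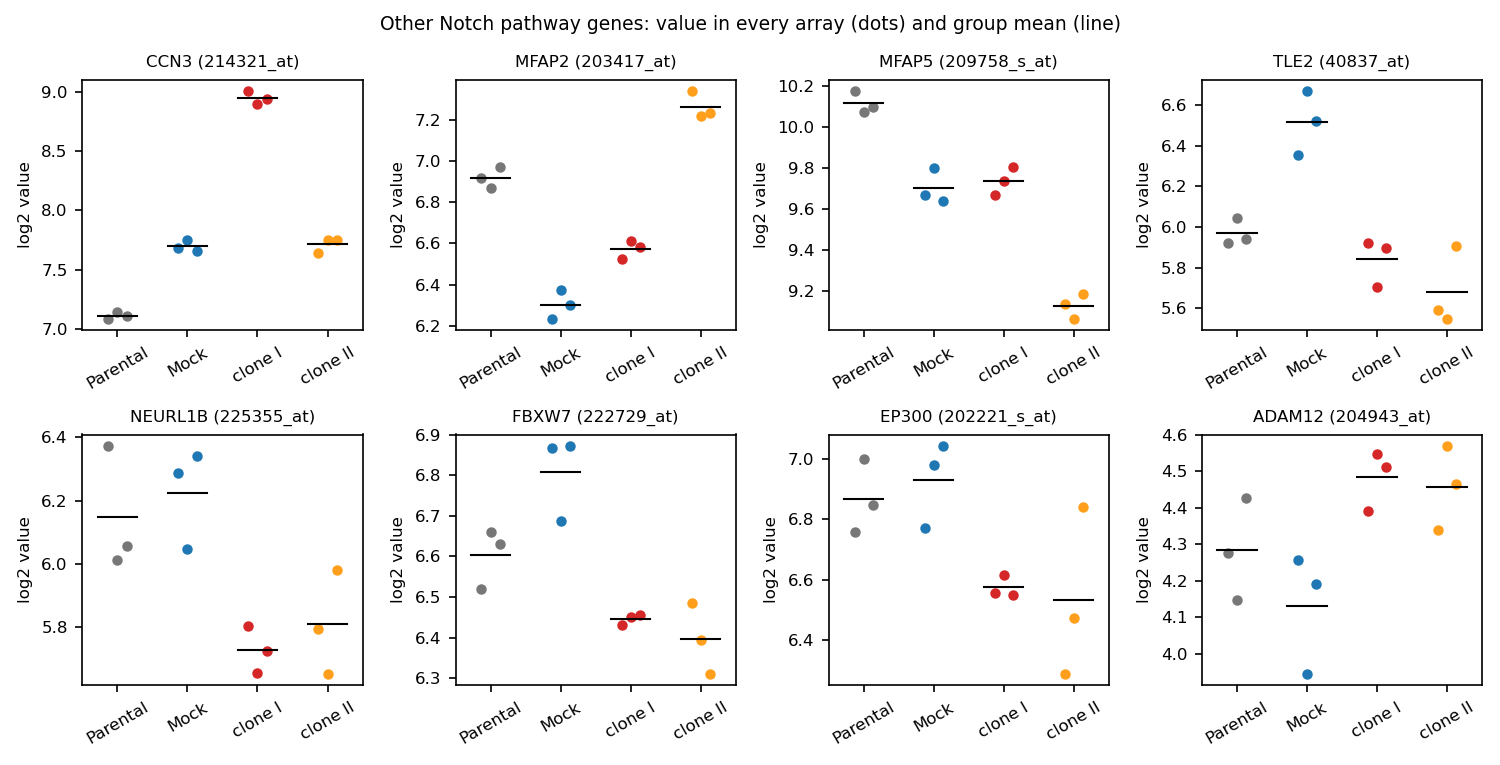
Log2 value of 8 other pathway genes in every array, with dots for the 3 arrays of a group and a bar for its mean; each panel has its own axis, which does not start at 0. CCN3 in clone I lies between 8.90 and 9.01, above all other arrays, and MFAP2 and MFAP5 in clone II stand apart from clone I in opposite directions.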

How the data were processed

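RNA of 12 samples of IGROV-1, 4 groups of 3 by their labels, was measured on 1-colour arrays from 6 µg of total RNA each. The authors deposited log2 values for each probe set, which the submitters' processing notes credit to RMA in R 2.6.0. Which chip definition file was used is not stated in the labels or headers. No further normalization was applied. Of 54675 probe sets, 41097 carry 1 symbol in the platform annotation, 1801 several and 11777 none. By Entrez number, 41043 matched RefSeq's gene table and 0 symbols changed. The test was limma 3.58.1 (R 4.3.3) with 1 mean per group over the 12 arrays, 8 residual and 5.19 prior degrees of freedom, and Benjamini-Hochberg adjustment over 19775 genes. Values of single probe sets were adjusted over the 41097 single-symbol ones. Errors after ± on differences are limma's standard errors. The fit was tested on simulated data.

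The members and lists were chosen with earlier results of these data known. All members are named, with array values for those called alike in both clones against Mock, called between the clones, or largest in a comparison, and for PSEN2, DTX4, NOTCH4 and MFNG after their values were seen. Of the other genes, up to 4 per direction with the largest smaller change in the clones are named. Alternatives were averaging all probe sets of a gene, dropping those ending in _x_at or _s_at, a mean log2 of at least 6, quantile normalization, centring, a trended and robust variance, a fit of the 2 groups compared, a replicate block and leaving out each array. Figures were drawn with matplotlib 3.10.9.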

Additional observations from a re-analysis of the deposited data

Results flagged for a closer look

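The following genes differed between the 2 knockdown clones by a test of the difference itself, clone I minus clone II, in log2 units with limma's adjusted p. Among the 32 members, ADAM10 was higher in clone I by 0.25 (0.0261), and this call ended in 4 of 6 fits that each left out an array (up to 0.106). Among the other pathway genes, DTX3L (0.39, 0.00827), KAT2B (0.25, 0.0182), CCN3 (1.24, 7.11e-08) and MFAP5 (0.61, 8.17e-05) were higher in clone I. HDAC1 (-0.29, 0.0236), MFAP2 (-0.69, 1.98e-05) and EGFL7 (-0.32, 0.0287) were lower in clone I. The calls of CCN3, MFAP2, MFAP5 and DTX3L held under each alternative that gave a value, whereas those of KAT2B, HDAC1 and EGFL7 ended when only the 2 clones were fitted (0.0693, 0.0848 and 0.0989) and when certain arrays were left out, and that of HDAC1 also after centring (0.055). For KAT2B these were clone I replicate 1 (0.0706) or 3 (0.067) and clone II replicate 1 (0.0523), for HDAC1 clone I replicate 1 (0.0775) or 3 (0.094) and clone II replicate 3 (0.056), and for EGFL7 clone I replicate 1 (0.114) or 2 (0.122) and clone II replicate 1 (0.0552) or 2 (0.119). CXCR4, the target of both hairpins, was higher in clone I by 0.47 (0.00517). Each hairpin was carried by 1 clone, so hairpin and clone cannot be told apart in these differences.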

How the results depend on the processing

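Of the 45 calls of members, 17 held under each alternative that gave a value for them, single probe sets aside, among them JAG1, HES4 and MAML2 against Mock in both clones, JAG2 in all 3 groups against Parental and NOTCH2 in Mock. Not all alternatives gave one: JAG1, NOTCH2 and HES4 have no probe set outside the _x_at and _s_at classes, and MAML2 lies under a mean log2 of 6. Quantile normalization kept 34 calls, centring 43, the fit of the 2 groups compared 37 and averaging all probe sets of a gene 34. Without _x_at and _s_at probe sets 23 members remained measured, and 21 of 32 calls held. Counts of members called then fell from 8 to 2 in clone I against Mock, 14 to 9 in clone II, 7 to 3 in Mock against Parental, and 8 to 3 and 7 to 3 in clones I and II against Parental. At a mean log2 of at least 6, which keeps 14 members, they were 9 in clone II against Mock, 5 in clone I against Parental and 4 between the clones. Both filters also change which genes are tested, and the share of all genes called under either is not given. These counts, out of 23 and 14 members, therefore cannot be set against the shares of all genes given above. Quantile normalization gave 4 in clone I against Mock, and its split in clone II against Mock was 4 higher and 6 lower, beside 3 and 12 after centring; in clone I it was 1 and 3, beside 1 and 7. In clone II against Parental it was 5 and 4 after quantile normalization, and between the clones 0 and 1. The fit of the 2 groups compared gave 9 members in clone II against Mock and 0 between the clones, and 12 and 4 other pathway genes there. Between the clones the mean of probe sets gave 0 members and the trended variance 4. With limma at an unadjusted p under 0.05, 6 members differed between the clones. The share of all genes at that threshold is not given, so nothing is read from this count.

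Leaving out 1 array at a time gave 5 to 7 members in clone I against Mock, 8 to 15 in clone II, 5 to 7 in Mock against Parental, 0 to 2 between the clones, 6 to 9 in clone I and 5 to 12 in clone II against Parental. The 12 came without clone II replicate 3, the 8 without clone II replicate 1, the 5 in clone I against Mock without its replicate 2 or 3, the 0 without any clone I replicate or clone II replicate 2, and the 2 without clone II replicate 1 or 3. For other pathway genes these ranges were 9 to 13, 12 to 21, 8 to 11, 4 to 8, 7 to 10 and 6 to 12 in the same order, the lows of 9, 12, 4, 7 and 6 without clone I replicate 2, clone II replicate 2, clone I replicate 1, clone I replicate 3 and clone II replicate 2. Signs turned, without passing, on single probe sets taken alone. In clone I against Mock they were NOTCH2 on 202445_s_at (0.0576) and JAG1 on 209097_s_at (0.0518) and 229924_s_at (0.0751). In clone II against Mock they were NOTCH1 on 223508_at (0.0704), NOTCH2 on 202445_s_at (0.0392), JAG1 on 229924_s_at (0.194), LFNG on 215270_at (-0.0012), NCSTN on 237076_at (0.0895) and RBPJ on 229540_at (0.121). Against Parental they were JAG1 on 209097_s_at in clone I (0.0929), on 209097_s_at and 229924_s_at in clone II (0.013 and 0.0607), RBPJ on 229540_at in clone II (0.0961) and NCSTN on 237076_at in Mock (-0.198). The RBPJ values of 0.121 and 0.0961 also apply without _x_at and _s_at probe sets. The cause of these changes was not tested. Same-numbered arrays correlated over 0.1 in 2 of 18 pairs (-0.11 to 0.15), and 2 of 12 arrays were closest to their own number, so the numbers pair nothing here. With the replicate block 42 of 45 calls held, and the counts of members were 8, 12, 7, 1, 8 and 8 in the order given above. Arrays hold no read depth, and the number of arrays limits the precision.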
